A study of Mus musculus with 8 samples.

Results

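The genes described here run mitosis: the mitotic cyclins and kinases, the spindle checkpoint, the chromosomal passenger complex, the centromere and kinetochore, condensin, the central spindle and the ubiquitin ligase activators that end mitosis. They were chosen by name, as rows whose platform gene symbol was 1 of 40 listed symbols, and kinesins were left out apart from Cenpe, whose product is itself a kinesin of the kinetochore. A row carried the symbol for 39 of them, among 19494 named genes on the array. Ccnb1, the cyclin B1 gene, had no row under its symbol and was not analysed here. Expression was measured on Clariom S arrays in alphaTC1.9 cells, a mouse line of glucagon-producing pancreatic alpha cells. The tested arrays, here called IDE-KD, came from 4 samples of cells in which insulin-degrading enzyme (Ide) had been knocked down with a small interfering RNA, and the others from 4 samples of control cells of the same line. Both groups grew in 16 mM glucose and received no further treatment, per the labels' protocols. The labels call each array a biological replicate. They do not say whether these were separate cultures, what the control cells received or how long after knockdown cells were harvested, so p-values measure only how far these samples differ, in part perhaps technically.

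Entry into mitosis is driven by Cdk1 bound to cyclins A and B, which is switched on by Cdc25 phosphatases, while Aurora and Polo-like kinases build the spindle and mature the centrosomes. The spindle checkpoint holds Cdc20 back until every kinetochore is attached. Cdc20 then directs the anaphase-promoting complex to destroy securin and cyclin B, separase cuts cohesin, and the cell divides. Transcripts of these genes accumulate in G2 and M phase, so in a culture their level follows the share of cells in those phases, and mature alpha cells divide rarely while a tumour-derived line such as alphaTC1.9 cycles in culture. A lower level of such a transcript in bulk RNA cannot tell fewer cells in mitosis from less RNA per cell.

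Many mitotic genes share a promoter plan in which a CCAAT box, bound by NF-Y, stands upstream of a cell cycle genes homology region (CHR), to which the repressor DREAM and the activator MuvB complexes bind. The promoters of 5 members that carry this plan are shown as examples. Cdca8 is the member whose groups stood apart. Bub1b and Plk1 had differences below 0 with groups that overlapped. Cdk1 and Ccnb2 are the mitotic kinase and a cyclin partner. Cdc25b and Smc2 also held both motifs and had lower differences than Plk1, and are not shown. The sequences shown are RefSeq sequences of GRCm38.p6, from 250 bases before to 50 after the gene's start, in the direction of the gene. Capitals mark CCAAT on either strand (ATTGG where it lies on the other strand) and the CHR letters TTTGAA or TTCGAA on either strand.
Cdca8 promoter (chr4:124936868-124937167, minus strand): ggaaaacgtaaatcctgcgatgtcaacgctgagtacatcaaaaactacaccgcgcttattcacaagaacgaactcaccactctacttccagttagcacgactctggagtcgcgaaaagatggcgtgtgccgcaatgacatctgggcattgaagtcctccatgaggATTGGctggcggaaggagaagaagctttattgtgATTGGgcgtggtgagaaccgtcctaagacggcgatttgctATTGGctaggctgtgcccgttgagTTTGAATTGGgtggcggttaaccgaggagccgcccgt
Bub1b promoter (chr2:118597961-118598260, plus strand): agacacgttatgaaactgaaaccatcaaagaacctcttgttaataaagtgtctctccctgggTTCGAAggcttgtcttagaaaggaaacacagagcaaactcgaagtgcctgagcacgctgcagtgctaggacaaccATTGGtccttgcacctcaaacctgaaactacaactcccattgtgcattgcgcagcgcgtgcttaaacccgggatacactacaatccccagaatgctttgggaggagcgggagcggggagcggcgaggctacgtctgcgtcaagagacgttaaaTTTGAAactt
Plk1 promoter (chr7:122159185-122159484, plus strand): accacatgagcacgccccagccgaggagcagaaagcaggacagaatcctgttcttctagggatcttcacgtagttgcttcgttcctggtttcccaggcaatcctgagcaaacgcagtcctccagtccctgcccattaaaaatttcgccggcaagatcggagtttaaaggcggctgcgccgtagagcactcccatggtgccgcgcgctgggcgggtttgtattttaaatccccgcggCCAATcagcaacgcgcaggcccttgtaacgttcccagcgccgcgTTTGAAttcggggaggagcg
Cdk1 promoter (chr10:69352863-69353162, minus strand): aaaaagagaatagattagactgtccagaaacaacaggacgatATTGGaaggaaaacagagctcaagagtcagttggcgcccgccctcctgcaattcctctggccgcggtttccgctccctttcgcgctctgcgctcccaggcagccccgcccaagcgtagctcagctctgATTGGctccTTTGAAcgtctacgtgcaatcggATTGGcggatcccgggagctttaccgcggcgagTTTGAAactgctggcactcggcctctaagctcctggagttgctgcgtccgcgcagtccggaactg
Ccnb2 promoter (chr9:70421505-70421804, minus strand): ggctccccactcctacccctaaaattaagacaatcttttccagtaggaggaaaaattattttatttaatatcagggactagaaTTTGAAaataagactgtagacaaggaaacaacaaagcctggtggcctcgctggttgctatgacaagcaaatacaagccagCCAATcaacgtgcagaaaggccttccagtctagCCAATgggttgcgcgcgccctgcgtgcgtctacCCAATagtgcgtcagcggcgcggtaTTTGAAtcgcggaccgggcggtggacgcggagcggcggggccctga
In the Cdca8 promoter the CHR letters, 14 to 19 bases after the start, share their last base with a CCAAT on the other strand, so both motifs form a single run of capitals.

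A promoter was found for 32 of the 39 measured members. Of these, 24 (75%) held the CHR letters, against 19.4% of the promoters of 27025 genes. CCAAT stood in 24 (75%), against 37.9% of all promoters, and both motifs in 22 (68.8%), against 7.7%. Of 88 other mitotic genes, 43.2% held the CHR letters and 25% both motifs. Of 25 DNA replication genes, 60% held CCAAT, but 20% the CHR letters, a share close to that of all genes. The letters TATAAA, searched on both strands, were in 0 of the 32 member promoters and in 14.2% of all promoters. CCAAT matches began at a median of 61.5 bases before the start, and CHR matches at a median of 3 bases after it. These matches are descriptions of letters, and no binding was measured here. Members with both motifs had a median log2 difference between IDE-KD and control cells of -0.028, with 15 of 22 lower, and the 10 others with a promoter had a median of -0.014, with 5 of 10 lower.

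**Figure D1:**
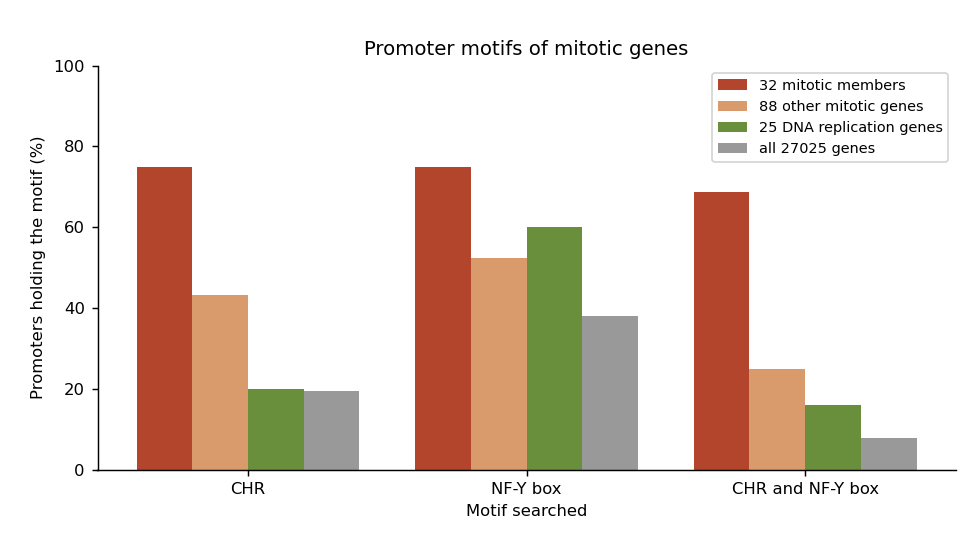
Share of promoters (%, vertical axis) that hold the CHR letters, the CCAAT box bound by NF-Y, or both, for 32 mitotic members, 88 other mitotic genes, 25 DNA replication genes and all 27025 genes. The members have the tallest bar at each motif, with 68.8% holding both against 7.7% of all genes.

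The knockdown was visible in Ide itself (probe set TC1900001454.mm.2), which read 7.91, 8.14, 7.92 and 8.05 on IDE-KD arrays 1 to 4, against 8.66, 8.62, 8.72 and 8.48 on control arrays 1 to 4, with no overlap and a log2 difference of -0.62 (SE 0.12). Alpha cell markers were well above the median array control row of 4.52, among them Gcg, the glucagon gene, at 12.06 ± 0.10 in IDE-KD and 12.06 ± 0.070 in control cells (SD, n = 4 each), with Irx2 and Pax6 at 8.65 and 8.24 in IDE-KD and 8.72 and 8.41 in control cells. Of 5 beta cell markers 3 lay below that row, as did 2 of 3 delta and PP cell, 2 of 3 fibroblast and 4 of 4 immune and endothelial markers. The 8 arrays were alike in their medians, but IDE-KD arrays 1 and 3 were the least spread, with an SD of expression over tested rows of 2.16 and 2.13, against 2.25 and 2.23 on IDE-KD arrays 2 and 4 and 2.20 to 2.24 on control arrays. These 2 arrays stand apart in what follows. Cdc25c, Cdca8 and the members as a set are given with and without them.

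No mitotic gene passed the test. In limma's fit over 22142 rows, 0 of 39 members had an adjusted p under 0.05, as did 0% of all rows. The smallest adjusted p over all rows was 1.00. Ide itself did not pass, at 1.53-fold lower with limma's unadjusted p = 0.000164, rank 3 of 22142 rows. The adjusted threshold thus missed the gene that was knocked down. At an unadjusted p under 0.05 there was 1 member lower in IDE-KD cells, Cdca8, where 1.91% of all rows were lower at that level. There were 0 higher members, where 2.69% of all rows were. Cdca8 was also the 1 member whose groups did not overlap, with 1.41% of all rows apart in that direction and 1.39% in the other. Of the 39 members, 23 (59.0%) were lower in IDE-KD cells. That share was 47.9% over all rows and 58.1% over the 9502 rows whose levels lay within the range of the members. The median log2 difference of the members was -0.024, beside 0.0074 over all rows and -0.024 over rows of like level. Other scalings moved the number of lower members to 30 with array medians subtracted (median -0.038) and to 19 after cyclic loess, where the median was above 0, at 0.0039.

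The intervals bounded each gene taken singly, over the arrays used, as they did for most rows. The 95% confidence interval of the log2 difference lay within a 2-fold change for 39 of 39 members, as it did for 99.7% of all rows. It lay within a 1.5-fold change for 37 of 39, as for 83.6% of all rows, and the exceptions were Cdc25c and Plk4. Fitted differences ran from -0.37 for Cdc25c to 0.11 for Bub3, and 30 of 39 were smaller than 0.1 in size. The median SE of a member was 0.13.

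**Figure D2:**
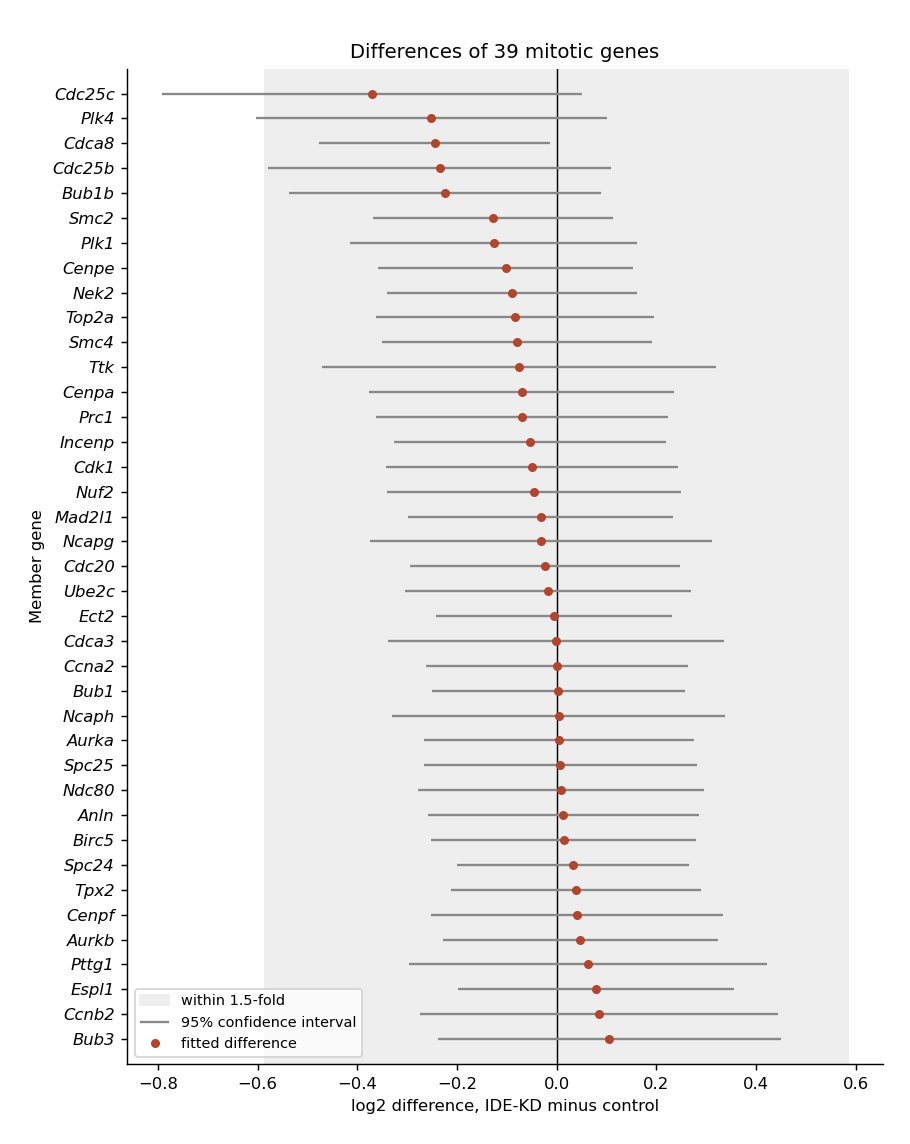
Fitted log2 difference between IDE-KD and control cells (horizontal axis) for each of the 39 measured members (rows, lowest difference at the top), with its 95% confidence interval from limma over 4 and 4 arrays. The shaded band is a change within 1.5-fold. The interval of Cdca8, -0.48 to -0.014, is the 1 that leaves out 0, and those of Cdc25c and Plk4 extend past the band.

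Cyclins, Cdk1 and its activating phosphatases did not move as a block, with 3 of 5 lower and none past the test. Cdk1 (probe set TC1000002341.mm.2), the kinase that starts mitosis, read 7.54, 7.94, 7.55 and 7.90 on IDE-KD arrays 1 to 4, against 7.87, 7.90, 7.63 and 7.74 on control arrays 1 to 4. The IDE-KD arrays were both the highest and the lowest of the 8 and enclosed the control arrays, and the log2 difference was -0.050 (SE 0.14). Ccna2, the cyclin A2 gene, which acts in S phase and early mitosis, stood at 9.27 ± 0.14 in IDE-KD and 9.27 ± 0.11 in control cells (SD, n = 4 each), a difference of 0.00019 with an interval of -0.26 to 0.26. Ccnb2, the cyclin B2 gene, stood at 7.91 ± 0.35 in IDE-KD and 7.82 ± 0.12 in control cells (SD, n = 4 each), a difference of 0.084 (SE 0.17).

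The phosphatase genes had the lowest differences of that group. Cdc25c (probe set TC1800001156.mm.2), which activates Cdk1 at mitotic entry, read 5.87, 6.57, 6.02 and 6.79 on IDE-KD arrays 1 to 4, against 6.43, 6.77, 6.65 and 6.88 on control arrays 1 to 4. IDE-KD arrays 1 and 3 lay below every control array and arrays 2 and 4 lay among them, so the groups overlapped. Its log2 difference was -0.37 (SE 0.19), 1.29-fold lower, with an interval of -0.79 to 0.051, limma's unadjusted p = 0.0799 and an exact two-sided permutation p of 0.229. Without IDE-KD arrays 1 and 3 the difference was -0.0041 (SE 0.16), and without arrays 2 and 4 it was -0.74 (SE 0.16). Cdc25b, a relative that acts at the centrosome around mitotic entry, read 6.98, 6.78, 6.64 and 7.11 on IDE-KD arrays 1 to 4, against 6.76, 7.33, 7.03 and 7.33 on control arrays 1 to 4. All 4 of its IDE-KD values lay below control arrays 2 and 4, and 1 of them lay below every control array, with a difference of -0.23 (SE 0.16).

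Among the mitotic kinases 3 of 5 were lower, none past the test. Plk1 (probe set TC0700004624.mm.2), the Polo-like kinase of centrosome maturation and spindle assembly, read 9.45, 9.67, 9.34 and 9.65 on IDE-KD arrays 1 to 4, against 9.39, 9.73, 9.72 and 9.77 on control arrays 1 to 4. Control array 1 stood as low as IDE-KD arrays 1 and 3, and the difference of -0.13 (SE 0.13) was smaller than the SD of either group. Plk4, the Polo-like kinase that starts centriole duplication, read 5.49, 5.58, 5.14 and 5.41 on IDE-KD arrays 1 to 4, against 5.31, 5.98, 5.83 and 5.50 on control arrays 1 to 4. The lowest value was that of IDE-KD array 3 and the others overlapped, with a difference of -0.25 (SE 0.16) and an interval of -0.60 to 0.10. Nek2, a kinase that parts the centrosomes, read 8.45, 8.51, 8.31 and 8.42 on IDE-KD arrays 1 to 4, against 8.65, 8.57, 8.42 and 8.42 on control arrays 1 to 4, and its difference was -0.089 (SE 0.12).

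The Aurora kinase genes gave differences close to 0. Aurka, the spindle pole Aurora kinase gene, read 7.84, 7.81, 7.68 and 7.75 on IDE-KD arrays 1 to 4, against 7.55, 7.80, 7.70 and 8.01 on control arrays 1 to 4. All IDE-KD values lay inside the control range, and the difference was 0.0044 (SE 0.13) with an interval of -0.27 to 0.28. Aurkb (probe set TC1100000892.mm.2), the Aurora kinase of the chromosomal passenger complex, read 8.32, 8.61, 8.37 and 8.67 on IDE-KD arrays 1 to 4, against 8.39, 8.45, 8.34 and 8.61 on control arrays 1 to 4. Arrays 2 and 4 of each group were above arrays 1 and 3 of the same group, and the difference was 0.047 (SE 0.13).

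The chromosomal passenger complex, which corrects faulty attachments at the centromere and then acts in cytokinesis, held the member with the smallest p. Cdca8 (probe set TC0400003516.mm.2), the borealin gene, which encodes a scaffold that carries Aurora B to centromeres, read 7.25, 7.17, 7.23 and 7.12 on IDE-KD arrays 1 to 4, against 7.46, 7.41, 7.42 and 7.46 on control arrays 1 to 4. Every IDE-KD array was below every control array, with both groups tight: the means were 7.19 ± 0.058 in IDE-KD and 7.44 ± 0.026 in control cells (SD, n = 4 each). The log2 difference was -0.25 (SE 0.11), 1.19-fold lower, with an interval of -0.48 to -0.014. Limma's unadjusted p was 0.0394, rank 789 of 22142 rows, and the adjusted p was 1.00. The exact two-sided permutation p was 0.0286, the smallest that 4 against 4 arrays allow. Cdca8 did not follow IDE-KD arrays 1 and 3, which gave its higher IDE-KD values: without these 2 arrays the difference was -0.29 (SE 0.13), and without arrays 2 and 4 it was -0.20 (SE 0.13). Its partners in the complex gave smaller differences, -0.054 (SE 0.13) for Incenp, which encodes the scaffold that activates Aurora B, and 0.014 (SE 0.12) for Birc5, which encodes survivin.

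**Figure D3:**
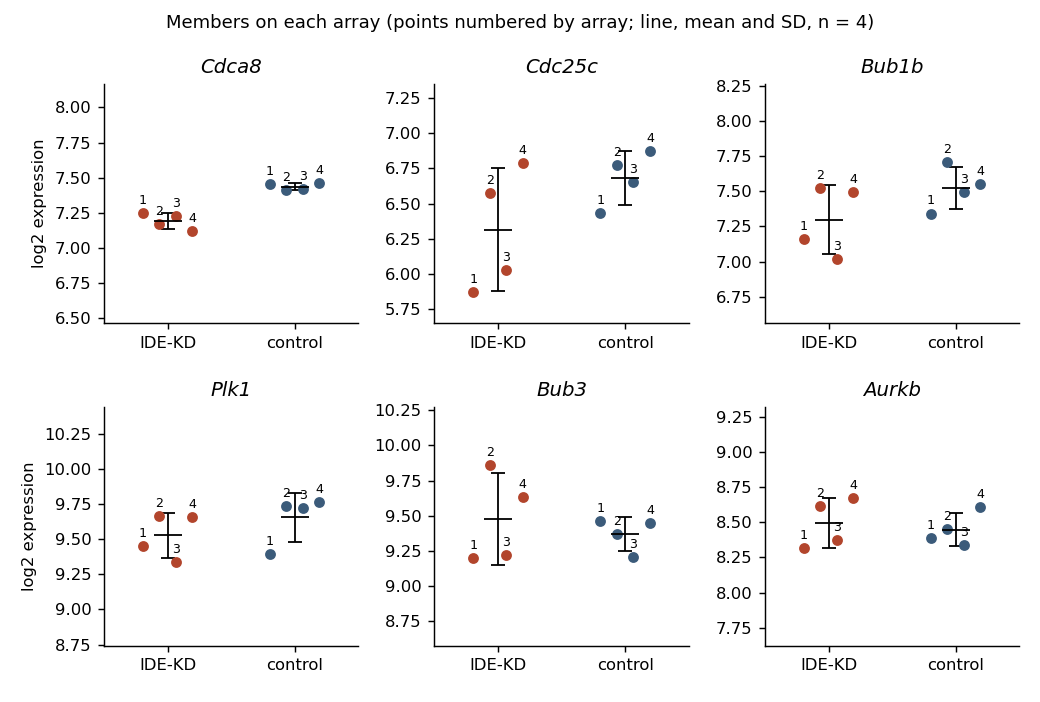
Log2 expression (vertical axis) of 6 members on the 4 IDE-KD and 4 control arrays, each point numbered by its array, with the group mean and SD as a line and bar, and panels of equal height in log2 units. The Cdca8 groups do not overlap, while the other members shown overlap, with IDE-KD arrays 1 and 3 below arrays 2 and 4.

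Spindle checkpoint genes gave differences in both directions, 3 of 5 lower. Bub1b (probe set TC0200001741.mm.2), which encodes BubR1, an inhibitor of Cdc20, read 7.16, 7.52, 7.02 and 7.49 on IDE-KD arrays 1 to 4, against 7.34, 7.71, 7.49 and 7.55 on control arrays 1 to 4. Arrays 1 and 3 of IDE-KD cells were the lowest of the 8 and the others overlapped control arrays, with a difference of -0.22 (SE 0.14) and an interval of -0.54 to 0.088. Bub3 (probe set TC0700001927.mm.2), the adaptor that brings Bub1 and BubR1 to kinetochores, read 9.20, 9.86, 9.22 and 9.63 on IDE-KD arrays 1 to 4, against 9.46, 9.37, 9.20 and 9.45 on control arrays 1 to 4. Here IDE-KD arrays 2 and 4 were the highest of the 8, and the difference was 0.11 (SE 0.16). Bub1, a checkpoint kinase gene, read 7.65, 7.73, 7.58 and 7.62 on IDE-KD arrays 1 to 4, against 7.73, 7.43, 7.71 and 7.70 on control arrays 1 to 4. Its values differed by 0.0029 (SE 0.12), and control array 2 was the lowest of the 8.

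The remaining checkpoint members were no further apart. Mad2l1, the Mad2 gene, whose product captures Cdc20, differed by -0.032 (SE 0.12). Ttk, which encodes the Mps1 kinase at the head of the checkpoint, differed by -0.076 (SE 0.18), with IDE-KD values from 6.22 to 7.07 around control values from 6.49 to 6.87.

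Centromere and kinetochore genes gave small differences, from -0.10 to 0.041, and 3 of 7 were lower. Cenpa (probe set TC0500000298.mm.2), the histone H3 variant that marks centromeres, read 8.33, 8.83, 8.56 and 8.92 on IDE-KD arrays 1 to 4, against 8.77, 8.74, 8.63 and 8.77 on control arrays 1 to 4. IDE-KD arrays 1 and 3 were the lowest and arrays 2 and 4 the highest of the 8, and the difference was -0.070 (SE 0.14). Cenpe, the kinetochore motor gene, read 7.95, 7.84, 7.76 and 7.69 on IDE-KD arrays 1 to 4, against 7.96, 7.81, 8.05 and 7.82 on control arrays 1 to 4, with a difference of -0.10 (SE 0.12). Of the Ndc80 complex, which grips microtubule ends, Ndc80 itself read 7.46, 7.92, 7.56 and 7.72 on IDE-KD arrays 1 to 4, against 7.78, 7.51, 7.60 and 7.74 on control arrays 1 to 4. Its groups overlapped throughout, with a difference of 0.0084 (SE 0.13). The other subunit genes of that complex, Nuf2, Spc24 and Spc25, differed by -0.045 (SE 0.14), 0.032 (SE 0.11) and 0.0074 (SE 0.13). Cenpf, a large kinetochore protein gene of G2 phase, differed by 0.041 (SE 0.13).

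Chromosome condensation genes were lower for 4 of 5, by small amounts. Top2a (probe set TC1100003693.mm.2), the topoisomerase that untangles sister chromatids, read 8.73, 8.99, 8.55 and 8.96 on IDE-KD arrays 1 to 4, against 8.83, 9.00, 8.84 and 8.88 on control arrays 1 to 4. Arrays 1 and 3 of IDE-KD cells were the lowest and the others lay among the control arrays, with a difference of -0.083 (SE 0.13). Smc2, a core ATPase gene of both condensin complexes, read 7.99, 8.06, 7.91 and 7.86 on IDE-KD arrays 1 to 4, against 8.04, 8.14, 8.13 and 8.01 on control arrays 1 to 4. Of its IDE-KD values 3 lay below every control value, with a difference of -0.13 (SE 0.11) and an exact two-sided permutation p of 0.0857. Its partner Smc4 differed by -0.079 (SE 0.13), and the condensin I subunit genes Ncapg and Ncaph by -0.032 (SE 0.16) and 0.0038 (SE 0.15).

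Genes of the spindle midzone and of cytokinesis were split, 2 lower and 2 higher. Tpx2, a spindle assembly factor that activates Aurora A, differed by 0.038 (SE 0.12), and Prc1, which bundles the central spindle, by -0.069 (SE 0.14). Anln, the anillin gene of the contractile ring, differed by 0.013 (SE 0.13), and Ect2, which activates RhoA at the division site, by -0.0058 (SE 0.11).

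Genes of anaphase and mitotic exit lay between -0.024 and 0.078. Ube2c (probe set TC0200002532.mm.2), the ubiquitin-conjugating enzyme of the anaphase-promoting complex, read 8.58, 8.92, 8.62 and 9.00 on IDE-KD arrays 1 to 4, against 8.76, 8.70, 8.79 and 8.95 on control arrays 1 to 4. Its groups overlapped, with a difference of -0.018 (SE 0.13). Cdc20, the activator of that complex, differed by -0.024 (SE 0.12), and Cdca3, a gene of mitotic entry, by -0.0016 (SE 0.16). Pttg1, the securin gene, differed by 0.062 (SE 0.17), with IDE-KD values from 7.67 to 8.47 around control values from 7.94 to 8.15. Espl1, the separase gene, differed by 0.078 (SE 0.13).

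The mean of the members ranged more widely among the IDE-KD arrays than the groups differed. Taken from each gene's control mean, the members averaged -0.13, 0.094, -0.18 and 0.029 on IDE-KD arrays 1 to 4 and -0.014, 0.022, -0.031 and 0.023 on control arrays 1 to 4. IDE-KD arrays 1 and 3 were thus the lowest and array 2 the highest of the 8. Control arrays 1 and 3 were also below control arrays 2 and 4, by less. IDE-KD arrays 1 and 3 both lay below arrays 2 and 4 at 23 of 39 members (59.0%), among them Cdk1, Ccnb2, Ttk, Pttg1 and Cenpa, beside 24.2% of all rows and 38.8% of rows within the range of member levels. The opposite order held at 3 members, Cdca8, Smc4 and Espl1, beside 23.2% of all rows.

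Array 3 was below the control mean at 37 of 39 members and array 1 at 30, while arrays 2 and 4 were above it at 26 and 25. The range over the IDE-KD arrays was wider than over the control arrays at 29 of 39 members, with medians of 0.40 and 0.27, and at 64.3% of rows of like level. The 31 DNA replication genes moved alike, at -0.18, 0.085, -0.18 and 0.049 on IDE-KD arrays 1 to 4 and -0.0013, 0.038, -0.056 and 0.019 on control arrays 1 to 4. Rows of like level moved the same way by less, at -0.062, 0.039, -0.10 and 0.030 on IDE-KD arrays 1 to 4.

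Other measures moved with these arrays. Ide was itself lowest on IDE-KD arrays 1 and 3. The exon control rows averaged 6.95 and 6.92 there, against 7.13 and 7.09 on IDE-KD arrays 2 and 4 and 7.05 to 7.10 on control arrays. Immune and endothelial markers, of which 4 of 4 lay below the median array control row, averaged 3.66, 3.30, 3.75 and 3.35 on IDE-KD arrays 1 to 4 and 3.14 to 3.44 on control arrays. Fibroblast markers averaged 4.06, 3.65, 4.10 and 3.81 on IDE-KD arrays 1 to 4 and 3.57 to 3.80 on control arrays. Not every marker followed its average. Ptprc, Pecam1, Cdh5, Col1a1 and Col3a1 were higher on IDE-KD arrays 1 and 3 than on 2 and 4. Lum was lower there, at 2.71, 2.74, 2.56 and 2.77 on arrays 1 to 4, and Cd3e showed no such split. Of the beta, delta and PP cell markers, Ins2, Pdx1, Slc2a2, Sst and Hhex were also higher on IDE-KD arrays 1 and 3. Iapp was lower there, and Nkx6-1 and Ppy showed no such split. Alpha cell markers averaged 9.56, 9.80, 9.54 and 9.71 on IDE-KD arrays 1 to 4 and 9.69 to 9.77 on control arrays. Irx2 and Pax6 were lower on IDE-KD arrays 1 and 3 than on 2 and 4. Gcg showed no such split, at 11.94, 12.17, 12.12 and 12.02 on IDE-KD arrays 1 to 4. The part of any of these in the pattern of the members was not tested. Without IDE-KD arrays 1 and 3, 14 of 39 members were lower and the median difference was 0.067, and without arrays 2 and 4, 32 were lower and the median was -0.16. These pairs were chosen after the values were seen, so the change of direction follows from that choice and is no test. In both fits 0 members passed the adjusted threshold.

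**Figure D4:**
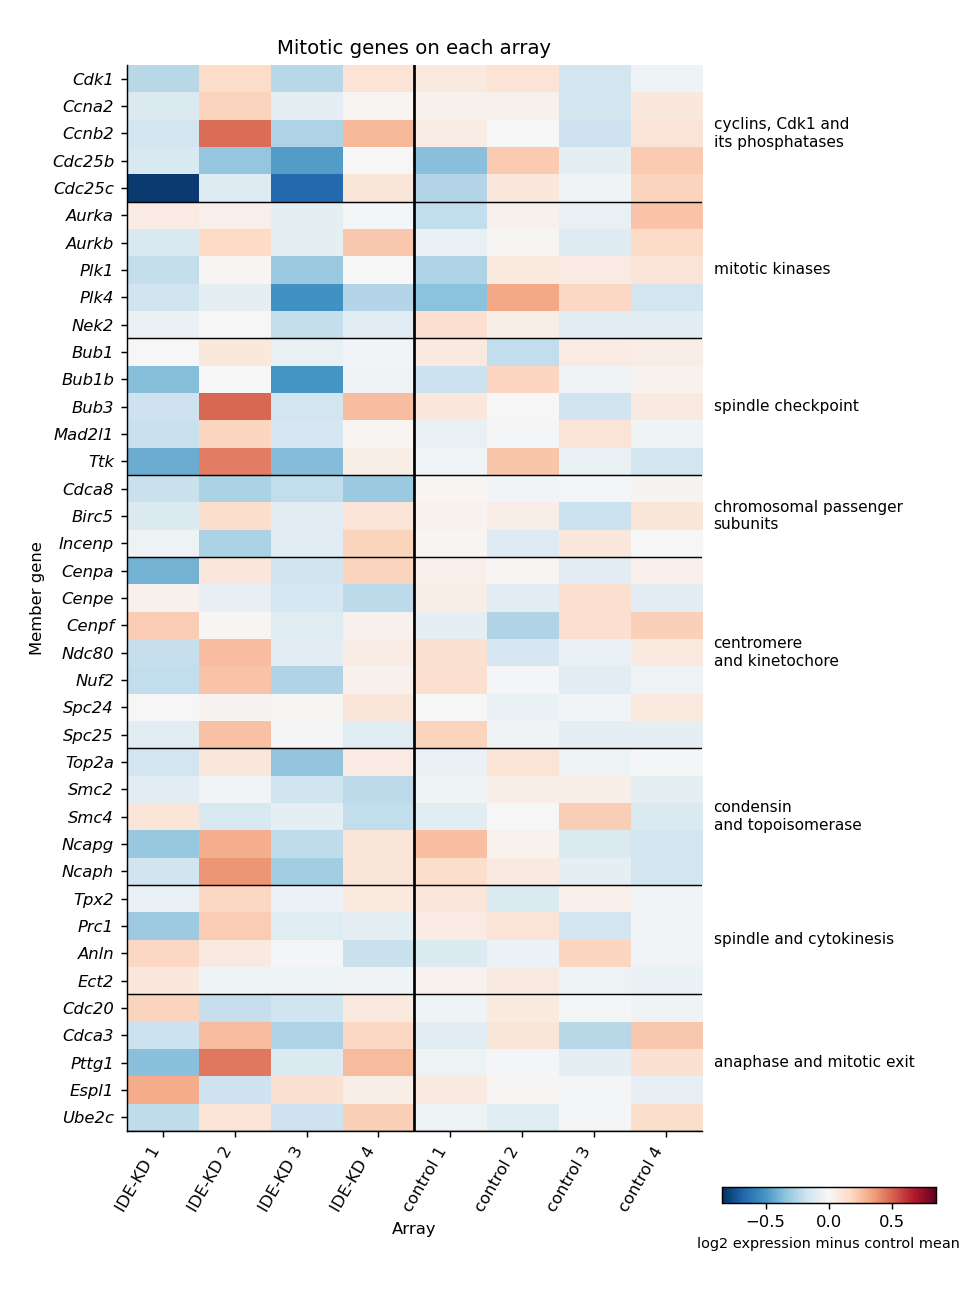
Log2 expression of the 39 members (rows, by role) on each array (columns, IDE-KD left of the line, control right), minus the gene's control mean, from blue for lower to red for higher. IDE-KD arrays 1 and 3 are mostly blue and arrays 2 and 4 mostly red, while Cdca8 is blue on all 4 IDE-KD arrays.

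**Figure D5:**
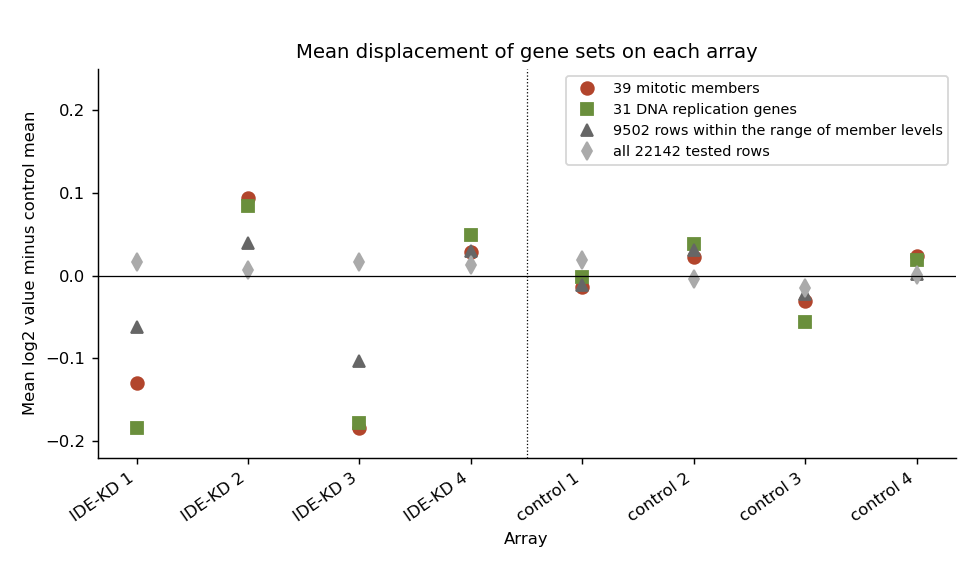
Mean log2 value minus control mean (vertical axis) on each of the 8 arrays (horizontal axis, IDE-KD left of the dotted line) for the 39 members, 31 DNA replication genes, 9502 rows within the range of member levels and all 22142 tested rows. The members lie at -0.13 and -0.18 on IDE-KD arrays 1 and 3 and at 0.094 and 0.029 on arrays 2 and 4, and all tested rows within 0.02 of 0.

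The wider mitotic programme was read from 6 further lists with 104 genes, of which 102 were measured. None passed the adjusted threshold, 1 was lower at an unadjusted p under 0.05, where 1.91% of all rows were, and 68 were lower by sign, with a median of -0.040. Other kinetochore and centromere genes were lower for 27 of 35 (median -0.062), with the smallest p at Cenpc1, the CENP-C gene, whose difference was -0.25 (SE 0.15). Mitotic kinesins were lower for 9 of 12 (median -0.10), with Kif20a, a motor of cytokinesis, at -0.26 (SE 0.12). Their mean was below 0 on all 4 IDE-KD arrays, at -0.062, -0.060, -0.17 and -0.075 on arrays 1 to 4, beside -0.036, -0.0023, 0.0058 and 0.032 on control arrays 1 to 4. Rows within the range of member levels averaged -0.062, 0.039, -0.10 and 0.030 on IDE-KD arrays 1 to 4. The kinesin means are given because of their values, and the other further lists had means above 0 on IDE-KD arrays 2 and 4.

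Subunits and regulators of the anaphase-promoting complex were lower for 8 of 17 (median 0.0022), with its subunit gene Cdc16 at 0.20 (SE 0.12). Cohesin and further condensin genes were lower for 10 of 14 (median -0.044), with the cohesin gene Rad21 at -0.10 (SE 0.12). Kinases and regulators around Cdk1 were lower for 6 of 11 (median -0.0051). Their Haspin gene, whose product phosphorylates histone H3, was the 1 at an unadjusted p under 0.05. Haspin read 5.58, 5.58, 5.69 and 5.88 on IDE-KD arrays 1 to 4, against 5.84, 6.43, 5.88 and 6.22 on control arrays 1 to 4. The groups overlapped at 1 IDE-KD and 1 control array, with a difference of -0.41 (SE 0.15) and an exact two-sided permutation p of 0.0571.

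Transcription factors of mitotic genes were lower for 8 of 13 (median -0.018). Nfya, which encodes the DNA-binding subunit of NF-Y that reads the CCAAT box, had the smallest p, at 0.17 (SE 0.11), and read 7.85, 7.59, 7.77 and 7.63 on IDE-KD arrays 1 to 4, against 7.52, 7.51, 7.59 and 7.53 on control arrays 1 to 4. Its IDE-KD values were all above the control values, the lowest of them by less than 0.01. Kif11, the kinesin that pushes spindle poles apart, was lower without overlap, at -0.14 (SE 0.11), and was named after its values were seen. Among these 102 genes 1 was thus apart in each direction, beside 1.41% of all rows apart lower and 1.39% apart higher. DNA replication genes, taken for comparison, were lower for 22 of 31 (median -0.073), with Mcm5, a subunit of the replicative helicase, at -0.21 (SE 0.12). No difference between these lists and the members was tested.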

How the data were processed

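Gene expression was measured on 8 arrays, 4 of IDE-KD and 4 of control alphaTC1.9 cells. The authors deposited log2 expression values with a column for each array. Per the submitters' processing notes the tools were limma, oligo and RMA, listed with neither version nor role. The probe sets' genome build was not stated. Values were used as deposited. Of 29129 rows, 22142 transcript clusters were tested, and 6923 control rows and 64 unplaced rows were left out. Genes were named from the platform table (19527 rows with 1 symbol, 2615 without). IDE-KD minus control was fitted with limma 3.58.1 (lmFit, eBayes) in R 4.3.3, with no covariate and Benjamini-Hochberg adjustment across all tested rows and a threshold of 0.05. Single genes were compared with exact two-sided permutation tests. Depth has no meaning for arrays, and their number limits the precision, with a median 95% half-width of 0.32. The fit was tested on simulated data. Alternatives were other moderation, array weights, scalings, a filter on dim rows, a replicate block and leaving out arrays. Members with the 10 smallest p and 10 fixed names, apart from Ccnb1, which had no row, were given on every array. Of each further list the gene with the smallest p was named. The members and lists were chosen with earlier results of these data known. Promoters came from RefSeq (GRCm38.p6), 1 per gene, the one listed first.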

Additional observations from a re-analysis of the deposited data

Results flagged for a closer look

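In groups of 4 arrays, a value was singled out when its gap to the nearest other value exceeded Dixon's 95% critical value for the share of the group's range. Chance does so in about 1 of 20 groups, and 4 of 80 groups held such a value. Ect2 read 9.15 on IDE-KD array 1, above 9.01 to 9.02 on the other IDE-KD arrays. Plk1 read 9.39 on control array 1, below 9.72 to 9.77 on the other control arrays. Bub1 read 7.43 on control array 2, below 7.70 to 7.73 on the others. Cdc20 read 8.15 on control array 2, above 8.03 to 8.04 on the others.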

How the results depend on the processing

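The number of members past the adjusted threshold was 0 under all 17 alternatives, as was the number of all rows. Members at an unadjusted p under 0.05 numbered 1 as reported, and 0 after cyclic loess and after a second quantile normalization. With 1 array left out they numbered 0 to 2 (Cdc25b and Plk4 without control replicate 1, Cdc25c in place of Cdca8 without IDE-KD replicate 2 or 4, none without control replicate 2, 3 or 4). Of all 22142 rows, 1017 were at that level as reported. They numbered 1044 after cyclic loess, 1041 after quantile normalization, and 788 to 1452 with 1 array left out. Members lower in IDE-KD cells numbered 23 as reported and 13 to 32 with 1 array left out, the fewest without IDE-KD replicate 3 and the most without IDE-KD replicate 2. There were 2 alternatives chosen after seeing the data. Leaving out IDE-KD arrays 1 and 3 gave 14 lower members and 4 at an unadjusted p under 0.05 (Ccnb2, Bub3, Cdca8 and Pttg1). In that fit 1749 of 22142 rows were at that level. Leaving out IDE-KD arrays 2 and 4 gave 3 (Cdc25c, Bub1b and Ttk) and a median difference of -0.16. In that fit 2792 of 22142 rows were at that level. The median otherwise moved by less than the SD of the array medians, 0.097, though its sign turned without IDE-KD replicate 1 or 3, without both, and after cyclic loess. Of 39 members, 28 changed sign in at least 1 of the 8 fits with an array left out, and 11 in none. With the replicate block the 1 member at an unadjusted p under 0.05 was Cdc25c and not Cdca8, with 0 past the adjusted threshold. In that fit 1253 of 22142 rows were at that level. The same-numbered arrays correlated at 0.10, 0.13, 0.088 and 0.098 in their deviations from the group means. These were not all over 0.1, and not every array correlated best with its own number, so the numbers were not taken as pairs. Arrays 1 and 3 correlated positively with arrays 1 and 3 of the other group, at 0.088 to 0.17. So did arrays 2 and 4 with arrays 2 and 4, at 0.025 to 0.21. Arrays 1 and 3 correlated negatively with arrays 2 and 4 of the other group, at -0.23 to -0.048. The split was thus in part shared by both groups. The main fit did not account for it, and its source was not tested.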
